A study of Mus musculus with 24 samples.

Results

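Expression of 4 genes of the mouse casein cluster, Csn2, Csn1s1, Csn1s2a and Csn3, was followed across 24 expression arrays of CD4 T cells. They are 4 of the 19938 genes that had a probe set with a single gene symbol, each was measured by 1 probe set, and no filter on low values was applied to them. They were selected on their measured values: Csn2 had the largest excess of all genes in knockout over wild-type cells, at day 4 with 10 ng/ml of anti-CD3e. The other casein genes were taken with it. Their own levels and differences are therefore given as a description, with no test. The name casein rests here on the probe sets' gene symbols; nothing was measured at the protein level.

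Naive CD4 T cells of the 129SvEv strain were either wild type (WT) or Batf1/3DKO, a genotype lacking the paired AP-1 family factors Batf and Batf3 and written DKO below. Cells of each genotype were taken unstimulated at day 0, after 2 days of culture, or after 4 days of culture with anti-CD3e, which stimulates through the T cell receptor, at 2.2 or 10 ng/ml. The cultures of both genotypes also received anti-CD28, cross-linked through plate-bound anti-hamster IgG, and were kept in TH2-polarising medium. The labels of the day 2 samples do not state the anti-CD3e concentration. This gives 8 groups of 3 arrays. Age, sex and pooling of mice are not given, and neither is whether replicates came from separate mice or cultures, so p-values below cover the spread among the arrays at hand, and that spread may be technical.

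Caseins are the main milk proteins; their genes lie side by side and are normally transcribed in the secretory epithelium of the lactating mammary gland. There, prolactin acts through its receptor and the kinase Jak2 to activate Stat5a and Stat5b, which bind the casein promoters together with the glucocorticoid receptor and C/EBP-beta. T cells use the same STAT5 proteins behind the receptors for several interleukins, among them those of the interleukin-2 receptor family, while interleukin-4, the TH2-polarising cytokine, acts mainly through STAT6.

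The stretch of 150 bases before the annotated start of Csn2 is printed first, because it holds a match to each of the STAT motifs searched; the 2 neighbouring casein genes with a listed promoter follow for comparison. The sequences are from RefSeq's promoter windows on build GRCm38.p6 and run 5′ to 3′ on each gene's own strand, with capitals for matches to TTCNNNGAA, the 3-base-spacer form bound by STAT5, or TTCNNNNGAA, the 4-base-spacer form preferred by STAT6. Csn2 is at chr5:87699426-87699575 on the minus strand, Csn1s1 at chr5:87666058-87666207 on the plus strand and Csn1s2a at chr5:87774300-87774449 on the plus strand.
Csn2: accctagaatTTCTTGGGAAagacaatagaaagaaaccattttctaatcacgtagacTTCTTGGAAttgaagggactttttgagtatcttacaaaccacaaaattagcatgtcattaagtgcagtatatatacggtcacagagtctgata
Csn1s1: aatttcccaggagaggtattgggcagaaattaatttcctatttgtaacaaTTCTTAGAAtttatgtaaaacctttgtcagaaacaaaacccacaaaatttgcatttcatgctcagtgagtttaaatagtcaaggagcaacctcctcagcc
Csn1s2a: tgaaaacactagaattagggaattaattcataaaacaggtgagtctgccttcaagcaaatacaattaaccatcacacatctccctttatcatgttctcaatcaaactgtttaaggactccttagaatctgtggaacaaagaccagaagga
A promoter window was matched for 3 of the 4 members; Csn3 is named only. In Csn2 the match to TTCNNNGAA is TTCTTGGAA at -93 to -85, counted from the annotated start, and the match to TTCNNNNGAA is TTCTTGGGAA at -140 to -131. Csn1s1 has TTCTTAGAA at -100 to -92, so the 3-base-spacer match lies at nearly the same distance from the start as in Csn2. Csn1s2a has no match in the printed stretch; the same 9 letters, TTCTTAGAA, lie downstream of its start, at 21 to 29. Both strands of the whole window, from 250 bases before to 50 bases after the start, were searched. Among 32851 such RefSeq windows, 8.3% held TTCNNNGAA and 6.95% held TTCNNNNGAA, both of which read the same on either strand. The AP-1 motif TGANTCA, in 7.81% of windows, was found in Csn1s1 alone, at -182 to -176, and the glucocorticoid receptor's binding-motif core AGAACA, in 19.0% of windows, was found in Csn1s2a alone, on the minus strand at -59 to -54. TATAAA, in 13.6% of windows, and the composite AP-1 and IRF elements AICE1 and AICE2, which contain a form of TGANTCA and were in 0.0791% and 0.0974% of windows, were found in none of the 3. A match is a run of letters and not a measured binding site, and motifs farther from the start were not searched.

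Csn2, which encodes beta-casein, was near its lowest level in all 4 WT groups and in unstimulated DKO cells, was somewhat higher in DKO cells at day 2, and reached its highest level in DKO cells cultured for 4 days with 10 ng/ml of anti-CD3e. Values are array intensities on the linear scale after the deposited normalisation. In unstimulated cells the 3 WT arrays read 13.5, 16.6 and 18.6 and the 3 DKO arrays 14.7, 13.3 and 18.0. At day 2 the WT arrays read 15.8, 15.5 and 14.9 and the DKO arrays 18.8, 20.2 and 22.6. All 6 unstimulated values interleave, whereas at day 2 every DKO array was above every WT array by a small margin.

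With 2.2 ng/ml at day 4 the WT arrays read 13.1, 16.8 and 14.1 and the DKO arrays 23.3, 82.5 and 78.4. With 10 ng/ml the WT arrays read 17.2, 14.3 and 13.8 and the DKO arrays 685.5, 1235.2 and 1356.3. The DKO groups at day 4 overlapped neither with WT nor with each other, and in each of them replicate 1 was the lowest array. The labels do not tie these arrays to each other. The mean was 1092 ± 357.5 (SD, n = 3) in DKO cells with 10 ng/ml, against 15.1 ± 1.84 in WT cells, 61.4 ± 33.0 in DKO cells with 2.2 ng/ml and 20.5 ± 1.90 in DKO cells at day 2. For scale, the median probe set with 1 symbol had an intensity of 33.2, so all 12 WT values of Csn2 were below it and all 3 values of the DKO group with 10 ng/ml were above it. Ordered by mean, the DKO group with 10 ng/ml was followed by DKO with 2.2 ng/ml and DKO at day 2; the lowest array with 2.2 ng/ml, at 23.3, was just above the highest at day 2, at 22.6. The remaining 5 groups had means of 14.7 to 16.25 and their arrays overlapped, so they have no order among themselves. In bulk RNA, a few cells with a high level and many cells with a moderate level cannot be told apart.

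**Figure D1:**
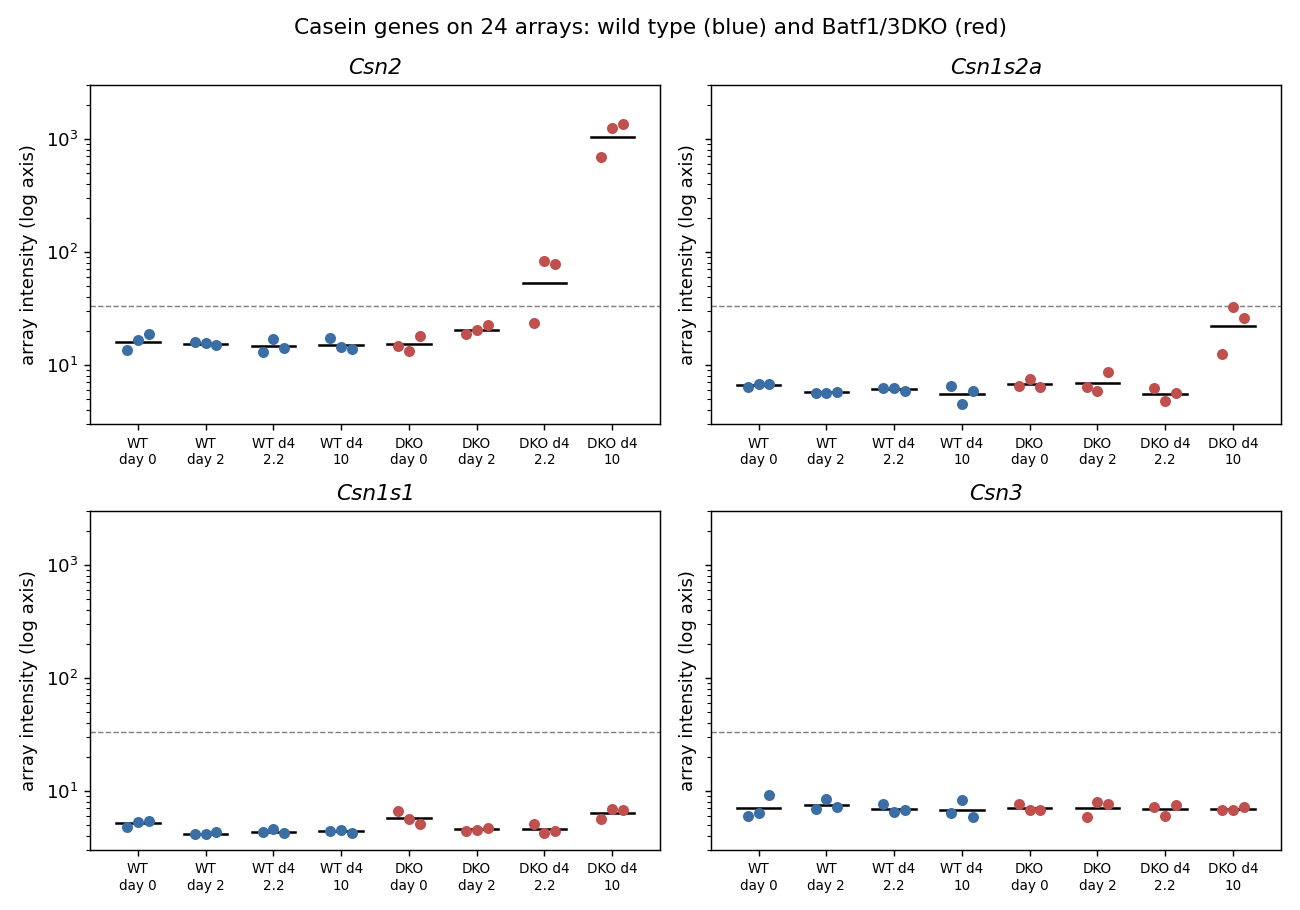
Array intensity (log axis) of Csn2, Csn1s2a, Csn1s1 and Csn3 in 8 groups of 3 arrays; points are arrays, black bars are geometric means, blue is wild type, red is Batf1/3DKO, d4 is day 4 with 2.2 or 10 ng/ml of anti-CD3e, and the dashed line is the median probe set at 33.2. The 3 knockout arrays with 10 ng/ml stand at 685.5 to 1356.3 for Csn2 and at 12.5 to 32.8 for Csn1s2a, while Csn3 stays between 5.8 and 9.2 on all 24 arrays.

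On the log2 scale the Csn2 difference, DKO minus WT, was -0.08 (SE 0.19) in unstimulated cells, 0.41 (SE 0.08) at day 2, 1.87 (SE 0.60) with 2.2 ng/ml and 6.12 (SE 0.32) with 10 ng/ml. These are geometric mean ratios of 1.33-fold at day 2, 3.65-fold with 2.2 ng/ml and 69.7-fold with 10 ng/ml. Among all 19938 genes the difference had rank 8 with 2.2 ng/ml and rank 1 with 10 ng/ml, counted from the largest excess in DKO, ranks that the choice of the gene made use of. With 10 ng/ml the difference stayed between 5.94 and 6.43 when any 1 of the 6 arrays was left out. With 2.2 ng/ml it depended on DKO replicate 1, the array at 23.3: without it the difference was 2.46, or 5.51-fold. Because the WT values lie among dim probe sets, the size of the fold rests on the level given to background: with 16 added to every value before taking logs, the difference with 10 ng/ml was 5.10.

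Within the DKO genotype, raising anti-CD3e from 2.2 to 10 ng/ml went with a Csn2 level 19.7-fold higher, a log2 difference of 4.30 (SE 0.67), with no overlap between arrays; without replicate 1 of the 2.2 ng/ml group it was 3.70, or 13.0-fold. Within the WT genotype the same step gave 0.04 (SE 0.14), and the arrays overlapped. From day 0 to day 4 with 10 ng/ml the DKO difference was 6.11 (68.9-fold) and the WT difference -0.10, beside a median over all genes of -0.05 in DKO and -0.10 in WT. For this step cyclic loess and quantile normalisation moved the WT median by 0.13 and 0.12 and the DKO median by 0.09 and 0.12. The comparisons between genotypes and between doses use the same DKO arrays with 10 ng/ml, so they are not separate evidence of its high level. DKO cells at day 2 stood 1.35-fold above unstimulated DKO cells, with a log2 difference of 0.43 (SE 0.15) and no overlap.

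Csn1s2a, which encodes an alpha-S2-type casein and is the next gene after Csn2 along the chromosome, was higher in DKO cells with 10 ng/ml and not with 2.2 ng/ml. With 10 ng/ml its WT arrays read 6.5, 4.5 and 5.9 and its DKO arrays 12.5, 32.8 and 25.8; with 2.2 ng/ml the WT arrays read 6.3, 6.2 and 5.9 and the DKO arrays 6.3, 4.8 and 5.6. The earlier groups were as low: 6.4, 6.8 and 6.8 in WT and 6.5, 7.5 and 6.4 in DKO at day 0, then 5.7, 5.6 and 5.8 in WT and 6.4, 5.9 and 8.6 in DKO at day 2. The DKO group with 10 ng/ml overlapped with none of the other 7 groups, and its lowest array was again replicate 1. The difference from WT with 10 ng/ml was 1.98 (SE 0.45), or 3.94-fold, and was 1.69 to 2.39 with any 1 array left out; with 16 added to every value it was 0.84. Against DKO cells with 2.2 ng/ml it was 2.00, or 3.99-fold. The DKO minus WT difference was 0.03 at day 0, 0.26 at day 2 and -0.16 with 2.2 ng/ml. All 24 values, the highest being 32.8, were below the median probe set's 33.2.

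Csn1s1, the alpha-S1-casein gene on the other side of Csn2, differed far less. At day 4 with 10 ng/ml its WT arrays read 4.4, 4.5 and 4.2 and its DKO arrays 5.6, 6.9 and 6.7, a difference of 0.54 (SE 0.10), or 1.45-fold, with no overlap. Unstimulated DKO cells, however, read 6.6, 5.6 and 5.1, and the DKO group with 10 ng/ml exceeded them by 0.14 (SE 0.14) with overlapping arrays. The DKO group with 10 ng/ml therefore separated from WT cells of the same state but not from unstimulated cells of its own genotype. Unstimulated WT cells read 4.8, 5.3 and 5.4. At day 2 the WT arrays read 4.1, 4.1 and 4.3 and the DKO arrays 4.4, 4.5 and 4.7; with 2.2 ng/ml they read 4.3, 4.6 and 4.2 in WT and 5.1, 4.2 and 4.4 in DKO. The day 2 groups did not overlap, at a difference of 0.12 (SE 0.03), and the 2.2 ng/ml groups did. With 16 added to every value the difference with 10 ng/ml was 0.13.

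Csn3 encodes kappa-casein, which keeps casein micelles in suspension, and lies farther along the cluster than the other 3. It showed no separation of the genotypes in any state. Its WT arrays with 10 ng/ml read 6.3, 8.3 and 5.8 and its DKO arrays 6.8, 6.7 and 7.2; with 2.2 ng/ml they read 7.6, 6.5 and 6.8 in WT and 7.2, 6.0 and 7.4 in DKO. At day 2 the WT arrays read 6.9, 8.5 and 7.2 and the DKO arrays 5.9, 8.0 and 7.6, and at day 0 they read 6.0, 6.3 and 9.2 in WT and 7.6, 6.7 and 6.8 in DKO. The differences were -0.01 at day 0, -0.08 at day 2, -0.02 with 2.2 ng/ml and 0.03 (SE 0.16) with 10 ng/ml.

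Counted by overlap, 0 of 4 members had all DKO arrays above all WT arrays at day 0, 3 of 4 at day 2, 1 of 4 with 2.2 ng/ml and 3 of 4 with 10 ng/ml. By the same rule, 5.46% of all 19938 genes were higher in DKO at day 0, 12.6% at day 2, 8.58% with 2.2 ng/ml and 15.8% with 10 ng/ml. Between doses, 3 of 4 members had all DKO arrays with 10 ng/ml above those with 2.2 ng/ml, beside 13.1% of all genes, and 0 of 4 did so in WT, beside 11.7%. Between day 0 and day 4 with 10 ng/ml, Csn2 and Csn1s2a were without overlap higher in DKO, beside 20.6% of all genes, and Csn1s1 was without overlap lower in WT, by a log2 difference of -0.24, beside 25.5%. The stricter rule used below for genes that are not members, an adjusted p under 0.05 in limma's fit, called 0.0552% of genes higher and 0.01% lower in DKO at day 0, and 1.03% and 1.68% at day 2. It called 1.65% and 2.06% with 2.2 ng/ml, and 6.68% and 6.09% with 10 ng/ml. Between doses it called 4.47% higher and 3.68% lower in DKO and 7.64% and 7.52% in WT. Between day 0 and day 4 with 10 ng/ml it called 16.4% and 14.3% in DKO and 18.4% and 18.0% in WT. The members were chosen with these values in view, so nothing about them is read from these shares.

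Along the chromosome, the differences were large at Csn2 and Csn1s2a and small at the measured genes around them. In the RefSeq order the measured genes run Sult1b1, Sult1d1, Sult1e1, Csn1s1, Csn2, Csn1s2a, Csn1s2b, Prr27, Gm7337, Odam, BC037156, Csn3, BC051076, Cabs1 and Smr3a. With 10 ng/ml the DKO minus WT differences were -0.05, -0.03 and 0.05 for the 3 sulfotransferase genes before Csn1s1, then 0.54, 6.12 and 1.98 for the 3 neighbouring caseins, and 0.27 for Csn1s2b, a further alpha-S2-type casein gene. Csn1s2b stood at 7.45 ± 0.298 in WT and 9.04 ± 1.14 in DKO cells (SD, n = 3), 1.21-fold higher (95% CI 0.959 to 1.52), with an adjusted p of 0.365 in limma's fit. By the overlap rule used for the members, its DKO arrays were all above its WT arrays, narrowly, as for 15.8% of all genes. Past it, Prr27 and Gm7337 had 0.08 and 0.20, Odam, an enamel-matrix gene, 0.00, and BC037156 -0.38. Of the 11 measured genes of this stretch that are not members, 0 passed the test with 10 ng/ml by limma (1 at an unadjusted p under 0.05), at differences of -0.38 to 0.27. The means of these 11 genes lay below the median probe set in all 8 groups. Among 20 measured genes of the wider list of casein relatives and neighbours, 1 was higher and 0 lower in limma's fit (3 and 0 at an unadjusted p under 0.05), with a median of 0.06 beside 0.03 over all genes. The 1 was Rufy3, a gene for an adaptor of neuronal and endosomal transport, at 31.4 ± 7.13 in WT and 64.9 ± 9.44 in DKO (2.09-fold, 95% CI 1.61 to 2.72, adjusted p = 0.000185 by limma). Enam, which encodes enamelin, stood at 18.45 ± 3.11 and 42.1 ± 16.1, with an adjusted p of 0.0504 that fell below the threshold under 5 alternatives.

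**Figure D2:**
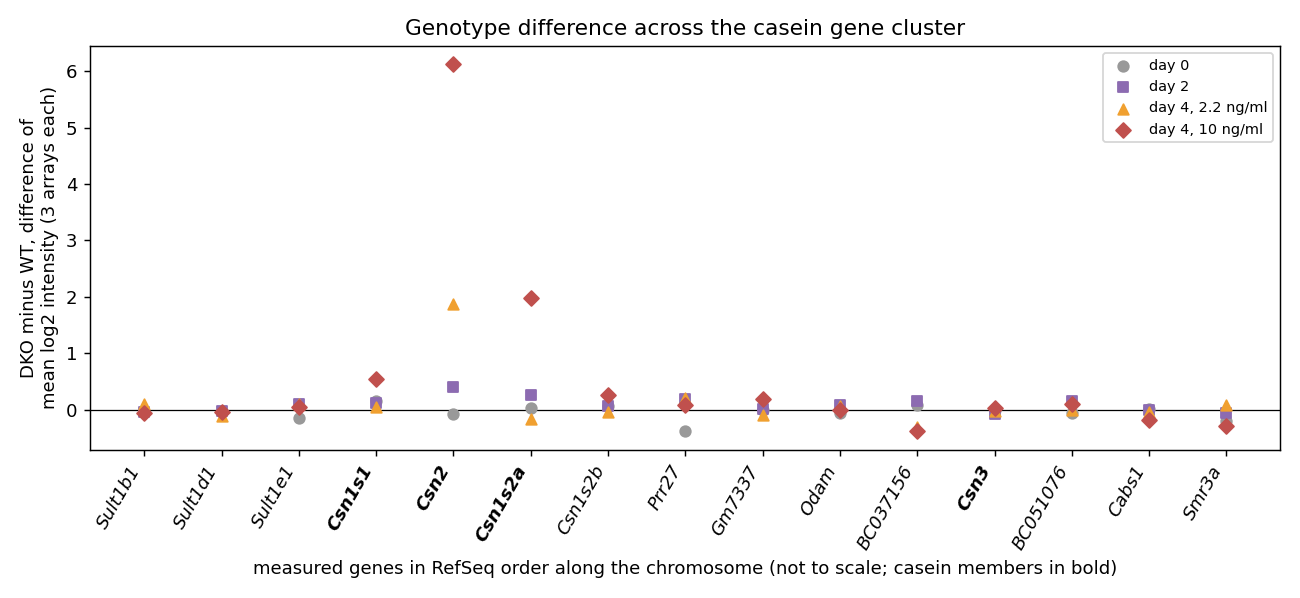
Difference of mean log2 intensity, knockout minus wild type (3 arrays each), for 15 measured genes of the casein cluster and its flanks in RefSeq order, not to scale; symbols mark day 0, day 2 and day 4 with 2.2 or 10 ng/ml, and members are in bold. At 10 ng/ml Csn2 stands at 6.12 and Csn1s2a at 1.98, while the 11 genes that are not members lie between -0.38 and 0.27.

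The genotype was checked on the deleted genes and the cell type on marker lists. Batf stood at 1595 ± 99.8 in WT and 46.5 ± 4.87 in DKO cells with 10 ng/ml (34.4-fold lower, adjusted p = 3.89e-17 by limma), and Batf3 at 146 ± 32.8 and 29.8 ± 4.57. At day 0, day 2 and with 2.2 ng/ml, WT means of Batf3 were 30.4, 35.8 and 28.95. In those states Batf3 did not pass the test between genotypes (adjusted p = 0.852, 0.26 and 0.695 by limma). With 10 ng/ml Irf4, the partner of Batf at AICE elements, stood at 1303 ± 101 in WT and 895.7 ± 68.4 in DKO cells. Its adjusted p of 0.112 by limma fell below the threshold under 3 alternatives. All 10 measured T cell markers were above the median probe set in every group, and their summed intensity was 8473.8 to 9152.7 in DKO against 9934.9 to 10562.8 in WT cells with 10 ng/ml. With 10 ng/ml 2 of the 10 were lower in DKO than in WT cells, the adhesion receptor Cd2 and the costimulatory receptor Cd28. The call for Cd28 (adjusted p = 0.0419) was lost when any of 5 single arrays was left out, namely WT replicates 1 and 2 and DKO replicates 1, 2 and 3, and under quantile normalisation, with the compared groups alone and with the replicate block. The 16 measured markers of mammary epithelium summed to 315.0 to 329.3 in DKO and 344.5 to 393.4 in WT cells with 10 ng/ml, and 1 of the 16 exceeded the median probe set in that DKO group. The sums were also low in WT cells at day 2, at 292.6 to 317.2, where Csn2 was low. Of those 16, 0 were higher in DKO cells with 10 ng/ml in limma's fit (1 at an unadjusted p under 0.05) and 2 were lower, the keratin gene Krt18 (48.8 ± 14.8 in WT, 21.4 ± 0.867 in DKO, adjusted p = 6.09e-06 by limma) and the adhesion gene Epcam (30.7 ± 10.9 and 14.1 ± 2.17, adjusted p = 0.000256). In WT cells both were higher with 10 than with 2.2 ng/ml, by log2 differences of 1.10 and 1.06 (adjusted p = 1.15e-05 and 0.000224 by limma). In DKO cells the same step gave 0.01 and -0.19, neither past the threshold. The 15 measured markers of other leukocytes summed to 179.2 to 220.9 in DKO and 157.7 to 202.8 in WT cells, and 0 of them passed limma's test (1 at an unadjusted p under 0.05). Cd79b, a B cell receptor chain outside this list, stood at 27.2 in WT and 88.85 in DKO cells with 10 ng/ml. It is named below for its likeness to Csn2. Lalba and several further markers were not analysed here.

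None of the measured milk genes other than the caseins was called higher in DKO than in WT cells with 10 ng/ml, where Csn2 was high. Of 19 measured genes for milk proteins, milk fat and lactation, 0 were higher in limma's fit (0 at an unadjusted p under 0.05) and 2 were lower in DKO than in WT cells with 10 ng/ml, with a median difference of -0.07 beside 0.03 over all genes. Wap, the whey acidic protein gene that in the mammary gland is induced alongside Csn2, stood at 25.4 ± 1.99 in WT and 23.3 ± 4.20 in DKO (adjusted p = 0.703 by limma, fold 1.10 lower, 95% CI 0.888 to 1.37). Like most of the 19, Wap had means below the median probe set in all 8 groups. The 2 that were lower were Plin2, a coat protein of lipid droplets, at 148.5 ± 35.9 and 44.8 ± 9.29 (3.30-fold lower, adjusted p = 2.83e-08), and Muc1, an epithelial mucin, whose adjusted p of 0.0381 was lost without WT replicate 2, DKO replicate 1 or DKO replicate 3, under quantile normalisation and with the compared groups alone. Plin2 stood at 44.9 in unstimulated DKO and 45.6 in unstimulated WT cells. In WT cells it was 3.69-fold higher with 10 than with 2.2 ng/ml (adjusted p = 7.19e-09 by limma). Within DKO cells, 0 of the 19 passed limma's test between 10 and 2.2 ng/ml, and 0 had an unadjusted p under 0.05. Among 10 measured relatives of the caseins among the mineral-binding phosphoproteins, 0 were higher (1 at an unadjusted p under 0.05) and 1 was lower in DKO than in WT cells with 10 ng/ml in limma's fit, with a median of 0.01: Sparc, a matrix protein gene, at 72.7 ± 8.86 in WT and 31.6 ± 7.88 in DKO (adjusted p = 5.43e-05).

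The receptors and kinases that can activate STAT5 were next read from the same fit. The prolactin receptor gene was not analysed here; the related growth hormone receptor gene Ghr stood at 6.72 ± 0.501 in WT and 6.52 ± 0.534 in DKO cells with 10 ng/ml, below the median probe set in both (adjusted p = 0.900 by limma). Of 16 measured receptor chains, 1 was higher and 4 lower in DKO cells with 10 ng/ml, with a median of -0.04. The 1 was Il9r, the interleukin-9 receptor, at 42.9 ± 10.5 in WT and 90.7 ± 20.5 in DKO (2.12-fold, 95% CI 1.62 to 2.78, adjusted p = 0.000186). Il9r was also 2.60-fold higher in DKO cells with 10 than with 2.2 ng/ml (adjusted p = 1.96e-05), where it stood at 35.1 ± 9.86. In WT cells it was 1.55-fold higher with 10 ng/ml (adjusted p = 0.0217), a call lost with the compared groups alone and without replicate 1 or 3 of either WT group. The difference between genotypes in this step was not tested. Lower in DKO cells were Il21r (2.77-fold, adjusted p = 1.44e-08), the interleukin-4 receptor chain Il4ra at 1396 ± 167 and 578.0 ± 62.0 (2.41-fold, adjusted p = 5.84e-07), the interleukin-2 receptor chain Il2ra at 3466 ± 447 and 1490.0 ± 107.5 (2.32-fold, adjusted p = 0.000173), and Il2rb. The call for Il2rb (adjusted p = 0.0456) was lost without WT replicate 1 or 3 or any 1 of the DKO arrays, and under quantile normalisation.

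Jak2, the kinase of the prolactin and growth hormone receptors, was abundant in both genotypes. Its level with 10 ng/ml was 1313 ± 150.1 in WT and 1001 ± 25.0 in DKO cells, and with 2.2 ng/ml 919.5 ± 76.7 and 498 ± 32.6. It was thus 2.01-fold higher in DKO cells with 10 than with 2.2 ng/ml (95% CI 1.71 to 2.36, adjusted p = 1.08e-06 by limma), in the same pair of groups in which Csn2 differed 19.7-fold, and 1.43-fold higher in WT cells (adjusted p = 0.00204), in which Csn2 did not separate. The call for a lower Jak2 level in DKO than in WT cells with 10 ng/ml (adjusted p = 0.0228) was lost without WT replicate 1 or 3 or DKO replicate 1 or 2, and with the compared groups alone. With 2.2 ng/ml Jak2 was 1.84-fold lower in DKO than in WT cells (adjusted p = 1.07e-05 by limma), a call lost under 0 of 14 alternatives. At day 2 Jak2 was 1.61-fold lower in DKO cells (adjusted p = 0.000637). Stat5a stood at 503.5 ± 77.0 in WT and 391 ± 11.1 in DKO cells with 10 ng/ml (adjusted p = 0.214). Stat5b stood at 343 ± 41.5 and 262 ± 17.7 (1.303-fold lower, adjusted p = 0.0333), a call lost without WT replicate 1 or 3 or any 1 DKO array, and with the compared groups alone. With 2.2 ng/ml Stat5a was higher in DKO cells, at 379 ± 68.8 against 244 ± 21.0 in WT (1.54-fold, adjusted p = 0.0356 by limma), a call lost with the compared groups alone and without any 1 WT array or DKO replicate 1 or 2. Stat5b in that state stood at 242.5 ± 27.8 and 224 ± 17.9 (adjusted p = 0.840). The arrays do not measure STAT5 phosphorylation. Stat6 with 10 ng/ml stood at 289 ± 41.2 and 293 ± 9.98 (adjusted p = 0.935; fold 1.02, 95% CI 0.861 to 1.22).

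Of the 9 measured JAK and STAT genes, 2 were higher and 4 lower in DKO cells with 10 ng/ml, with a median of -0.35. Higher were Stat4, which transmits interleukin-12 signals, at 86.5 ± 17.25 and 174 ± 18.6 (2.03-fold, adjusted p = 9.27e-05 by limma), and Jak1, whose adjusted p of 0.0255 was lost without WT replicate 3, DKO replicate 1 or DKO replicate 3, under cyclic loess and with the compared groups alone. Lower besides Jak2 and Stat5b were Stat3 at 587 ± 63.3 and 223 ± 11.1 (2.62-fold, adjusted p = 1.22e-08) and Stat2 (2.31-fold, adjusted p = 1.04e-05). Stat3 did not differ by dose in DKO cells past the threshold (adjusted p = 0.986).

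Genes that respond to STAT5 in lymphocytes went both ways where Csn2 was high, and STAT5 activity was not tested. The list does not sort genes by whether STAT5 raises or lowers them, so its counts give no direction of STAT5 activity. Of 20 measured, 2 were higher and 8 lower in DKO than in WT cells with 10 ng/ml, with a median of -0.22 beside 0.03 over all genes. Cish, a feedback inhibitor and a direct STAT5 target, stood at 786 ± 44.8 in WT and 673 ± 22.2 in DKO cells (adjusted p = 0.443 by limma). The 2 that were higher were the survival gene Bcl2l1, at 140.7 ± 8.04 and 237.5 ± 0.879 (1.69-fold, adjusted p = 0.00169), and Foxp3, the regulatory T cell factor, a call lost without WT replicate 1. Among those that were lower were Il10, at 589.9 ± 267.3 in WT and 8.33 ± 0.804 in DKO cells, the latter among dim probe sets and near its 7.20 in unstimulated WT cells, Socs3 at 382 ± 31.8 and 64.3 ± 10.04 (5.98-fold, adjusted p = 1.46e-11), the granzyme gene Gzmb, the survival gene Mcl1, Il2ra and Socs2. The other two were the cytokine gene Osm and the cyclin gene Ccnd3. Between doses within DKO cells, 4 of the 20 were higher and 5 lower with 10 ng/ml: the 4 were Socs2 (2.76-fold, adjusted p = 0.000161), the kinase genes Pim2 (2.10-fold, adjusted p = 0.000119) and Pim1 (1.93-fold, adjusted p = 0.000318), and Il2ra. In WT cells, where Csn2 did not separate, all 4 were also higher with 10 than with 2.2 ng/ml: Socs2 2.93-fold, Il2ra 2.02-fold, Pim2 1.775-fold and Pim1 1.57-fold, with adjusted p of 3.67e-05, 0.00108, 0.000988 and 0.00617 by limma. The call for Il2ra between doses (1.66-fold, adjusted p = 0.0278) was lost without DKO replicate 1 or 3 of the 2.2 ng/ml group or any 1 array of the 10 ng/ml group, and under quantile normalisation. Lower with 10 ng/ml, opposite to Csn2 between the same DKO groups, were Foxp3, Mcl1, Socs3, Socs1 and the transcription factor gene Bcl6. Foxp3 was 4.78-fold lower (adjusted p = 1.19e-10 by limma) and Mcl1 1.76-fold lower (adjusted p = 6.66e-05). The calls for Socs3, Socs1 and Bcl6 had adjusted p of 0.0142, 0.0228 and 0.0206 by limma. Those for Socs3 and Socs1 were lost under some alternatives, and that for Bcl6 was not read under them.

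**Figure D3:**
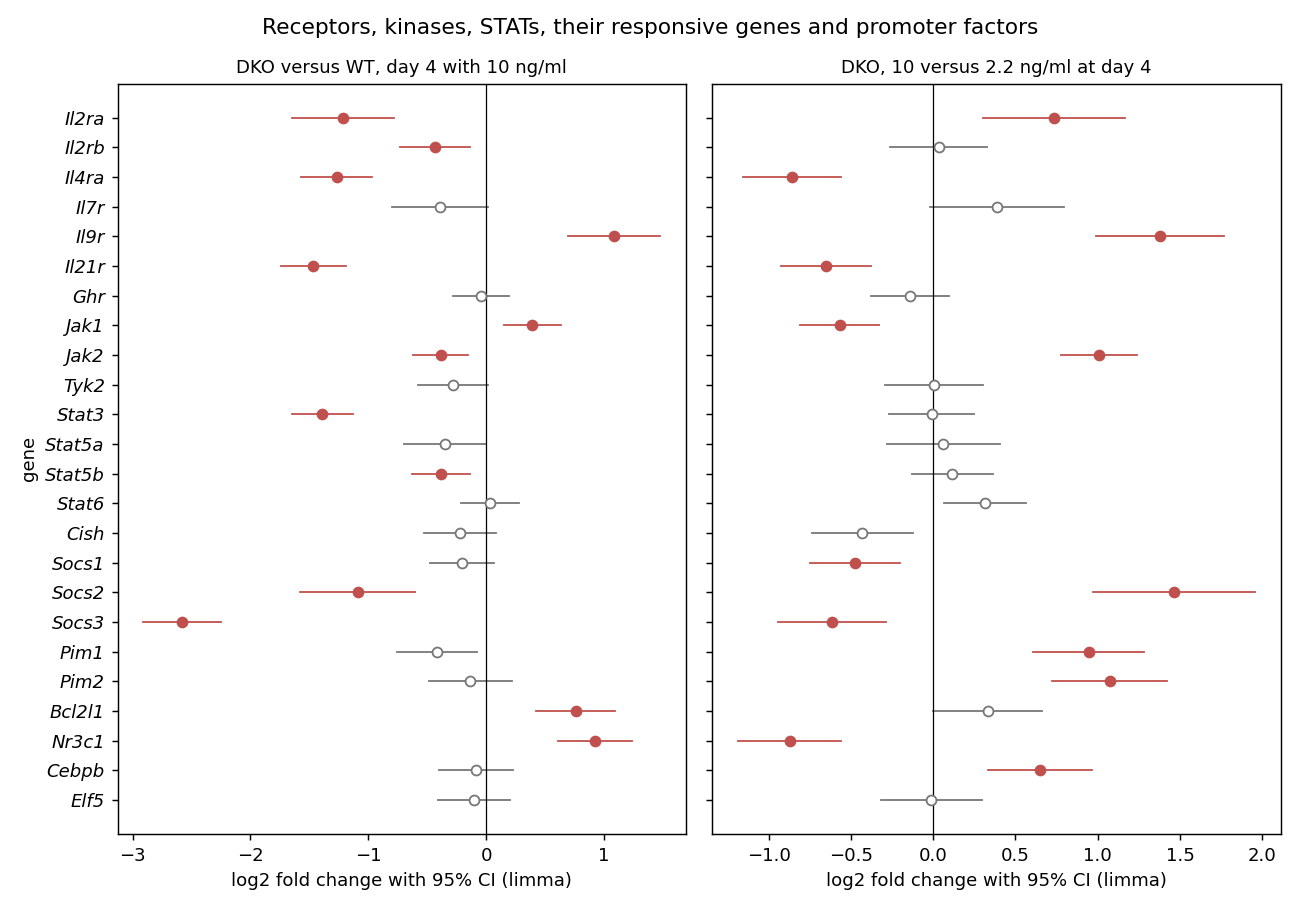
Fitted log2 fold changes with 95% confidence intervals from limma over 19938 genes for 24 genes that are not members, in knockout versus wild-type cells with 10 ng/ml (left) and in knockout cells with 10 versus 2.2 ng/ml (right); the axes differ in range, and filled red points passed an adjusted p of 0.05. Both panels share the 3 knockout arrays with 10 ng/ml. In the left panel the filled points above 0 are Il9r, Nr3c1, Bcl2l1 and Jak1, and Socs3 lies lowest. In the right panel the filled points above 0 are Socs2, Il9r, Pim2, Jak2, Pim1, Il2ra and Cebpb.

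Of 19 measured factors and cofactors that act at casein promoters in the mammary gland, 3 were higher and 2 lower in DKO cells with 10 ng/ml, with a median of -0.08. Nr3c1, the glucocorticoid receptor gene, stood at 63.98 ± 14.0 in WT and 119.7 ± 14.2 in DKO (1.895-fold, adjusted p = 0.000101 by limma). In DKO cells it was 1.83-fold lower with 10 than with 2.2 ng/ml (adjusted p = 0.000364), opposite to Csn2 between the same groups. In WT cells, where Csn2 did not separate, Nr3c1 was 1.79-fold lower in the same step (adjusted p = 0.000275). Its DKO excess over WT was also called at day 2 (1.75-fold, adjusted p = 0.00272) and with 2.2 ng/ml (1.94-fold, adjusted p = 0.000219). With 10 ng/ml the deacetylase gene Hdac1 was 1.43-fold higher in DKO than in WT cells (adjusted p = 0.00248). The coactivator gene Crebbp was higher with an adjusted p of 0.024 that was lost without WT replicate 1 or 3 or DKO replicate 1 and under cyclic loess. The nuclear factor I gene Nfia was 2.29-fold lower (adjusted p = 1.31e-05), and the call for Ets1 (adjusted p = 0.0449) was lost when any 1 of the 6 arrays was left out, under quantile normalisation and with the compared groups alone. Cebpb, which encodes C/EBP-beta, stood at 82.6 ± 7.10 and 78.4 ± 12.8 (adjusted p = 0.848), and in DKO cells was 1.57-fold higher with 10 than with 2.2 ng/ml (adjusted p = 0.00678), a call lost without replicate 2 of either group. Elf5, a factor that defines milk-secreting cells, stood at 18.2 ± 3.05 and 16.8 ± 2.48, below the median probe set in both (adjusted p = 0.788). Of 14 measured glucocorticoid targets, 1 was higher, the chaperone gene Fkbp5 at 104 ± 8.598 and 212 ± 7.36 (2.04-fold, adjusted p = 0.000622), and 4 were lower, with a median of -0.31: the metallothionein genes Mt2, at 2121 ± 356.7 and 27.3 ± 21.2 with the latter below the median probe set, and Mt1 (24.3-fold), Tgfbr3 and Zfp36.

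Of 15 measured genes of cytotoxic cells, 1 was higher and 2 were lower in DKO cells with 10 ng/ml, with a median of 0.00: the T-box gene Eomes (2.39-fold higher, adjusted p = 0.00483 by limma), Gzmb (2.584-fold lower, adjusted p = 0.000812) and Nkg7 (2.52-fold lower, adjusted p = 0.000232). Eomes had its higher DKO level with 2.2 ng/ml, at 599 ± 82.5 against 46.8 ± 13.3 with 10 ng/ml, opposite to Csn2. In WT cells, where Csn2 did not separate, the same step gave Eomes a log2 difference of -3.38 (adjusted p = 1.03e-08 by limma).

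The genes whose pattern was most like that of Csn2 were found by Pearson's r between log2 group means over the 8 groups, among 4648 named genes whose group means spanned at least 1 log2 unit. This is a description: the points share arrays, and 1 group with a high mean can carry an r of this kind. The 10 highest were Anpep, encoding a membrane aminopeptidase (r = 0.979), Tnfsf15, a TNF-family cytokine (0.976), Ostn, a secreted peptide (0.975), Chn2, a regulator of Rac (0.974), Hdc, the histamine-forming enzyme (0.971), Pdzk1ip1 (0.958), Serpinb6b, a protease inhibitor (0.949), Cd79b, a signalling chain of the B cell receptor (0.942), Lin7a, a scaffold protein (0.939), and Zfp467, a zinc-finger protein (0.934). Over the 24 single arrays the r values of these genes were 0.821 to 0.959, Ostn being highest. The gene just outside, Serpinc1, had 0.933, so the limit of 10 marks no gap. Csn1s2a had 0.917 over the 8 group means and 0.852 over the 24 arrays, Csn1s1 0.668 and Csn3 -0.29.

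The sizes were smaller than for Csn2. Ostn with 10 ng/ml stood at 6.69 ± 0.422 in WT and 44.3 ± 11.3 in DKO cells, 6.47-fold higher, Lin7a at 10.1 ± 0.823 and 75.9 ± 16.01, 7.39-fold, and Serpinb6b at 36.99 ± 11.2 and 234.5 ± 84.9, 6.20-fold. The other 7 were 1.80- to 4.82-fold higher in DKO cells. With 2.2 ng/ml Lin7a stood at 18.7 in WT and 26.9 in DKO cells, where Csn2 stood at 14.7 and 61.4. RefSeq promoter windows were matched for 8 of the 10, 12 windows in all, and 0 of these genes had TTCNNNGAA or TTCNNNNGAA in a window, whereas Csn2 had both; with so few genes this count is a description.

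**Figure D4:**
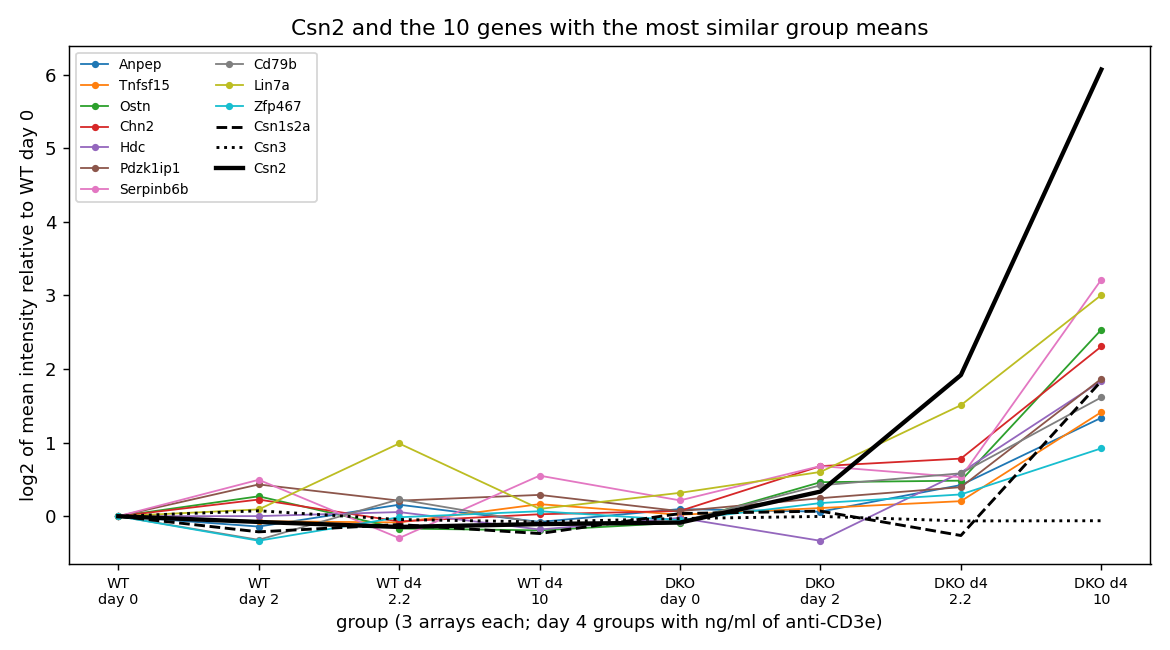
Log2 of each group's mean intensity relative to unstimulated wild-type cells, for Csn2 (thick black), Csn1s2a (dashed), Csn3 (dotted) and the 10 genes most like Csn2, in 8 groups of 3 arrays; d4 is day 4 with 2.2 or 10 ng/ml. All 11 lines other than the dashed and dotted ones have their highest point in knockout cells with 10 ng/ml, Csn2 the highest of them, while Csn3 stays near 0.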

How the data were processed

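Total RNA of the 24 samples was measured on mouse gene expression arrays. The authors deposited 1 table of linear probe set intensity values, normalised across arrays by RMA per the submitters' processing notes; the array build is not given in the sources used here. All values were taken as log2 of the deposited intensity, with no further normalisation and no filter. Of 35556 probe sets, 21789 had 1 gene symbol, 1621 several and 12146 none listed; several-symbol probe sets were left out, and the brightest probe set by mean log2 stood for each of 19938 genes. Array medians were 26.4 to 31.6, and arrays of a group correlated at r = 0.983 to 0.992; the number of arrays limits the precision. Samples were grouped by the genotype and stimulation labels into 8 groups of 3. A single limma model (version 3.58.1 in R 4.3.3) with a mean per group gave each contrast, with Benjamini-Hochberg adjustment over all genes and a threshold of 0.05. The fit was tested on simulated data with known changes. The members and gene lists were chosen with earlier results of these data known. Named genes are the members, Batf, Batf3 and Irf4, up to 6 list genes called in each direction with 10 ng/ml, fixed pathway genes whatever their value, and the 10 most like Csn2. Osm, Ccnd3 and Bcl6 were named after their values were seen and were not read under the alternatives below. Alternatives were cyclic loess, quantile normalisation, a filter on dim genes, mean or separate probe sets, the compared groups alone, a replicate block, a robust variance trend, array weights, 16 added before logs, and each array left out. Reading the named list genes under these alternatives was added after seeing the data. RefSeq's gene table was used for gene order only.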

Additional observations from a re-analysis of the deposited data

Results flagged for a closer look

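For 8 named genes every WT array moved one way and every DKO array the other way between 2.2 and 10 ng/ml; the difference between genotypes was not tested for any of them, and the members are not among them. Of log2 differences, 10 minus 2.2 ng/ml, Il21r had 0.70 in WT and -0.65 in DKO. Socs3 had 1.2 in WT and -0.62 in DKO. Tgfbr3 had 0.51 in WT and -0.87 in DKO, and Nkg7 had 1.13 and -0.87. Cd2 had 0.64 in WT and -0.39 in DKO. The opposite pattern, lower with more anti-CD3e in WT and higher in DKO, was seen in Fkbp5, with -0.49 and 0.81. It was also seen in Cd79b, with -0.33 and 1.0, and in Lin7a, with -0.89 and 1.47; these last genes were selected for their likeness to Csn2, which stood at 0.04 and 4.30.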

How the results depend on the processing

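None of the values compared here changed sign as a call. Of 296 values for members and counts of called genes under alternatives, 278 stayed within 1 SD between replicates (counts: within 1.5 times) and 18 moved. The wide spread of Csn2 with 2.2 ng/ml keeps its 2.46 without DKO replicate 1, against 1.87, within that limit. Some of the 278 could not move. Each member has 1 probe set and full groups of 3, so the mean of probe sets and the replicate block leave its differences unchanged. Of 2860 values for single named genes, 159 lost and 24 gained the call. Adding 16 before logs gave Csn2 differences of 0.22 at day 2 and 5.10 with 10 ng/ml, Csn1s1 differences of 0.0268 at day 2 and 0.13 with 10 ng/ml, and a Csn1s2a difference of 0.84 with 10 ng/ml; cyclic loess gave 0.081 for Csn1s1 at day 2. Genes called at day 0 numbered 13, against 4 with cyclic loess, 2 with the compared groups alone and 6 with array weights, and 4 to 14 with 1 array left out (fewest without WT replicate 2 or DKO replicate 1 or 2). With 2.2 ng/ml 739 were called, against 462 with the compared groups alone and 489 to 819 with 1 array left out (489 without DKO replicate 2). At day 2 the 541 became 298 to 590 (314 without WT replicate 1, 298 without WT replicate 2, 315 without DKO replicate 3), and between doses in DKO the 1625 became 1058 to 1453 (1058 without DKO replicate 1 of 2.2 ng/ml). Same-numbered samples did not deviate together throughout (correlations of deviations -0.1 to 0.26, in no comparison over 0.1 for all 3 numbers). These correlations cannot tell whether the numbers mark a shared mouse, litter or day, and the labels do not say. With the replicate number as a block, 2546 genes were called with 10 ng/ml against 2545. By construction such a block leaves the members' differences of means unchanged. With the block, 3 named genes lost a call (Sparc with 2.2 ng/ml, Cd28 with 10 ng/ml, Cd2 between doses) and Enam gained it. The causes of these shifts were not tested. The filter on dim genes left out all 4 members: the Csn2 geometric mean over 24 arrays, 31.4, was just under the median gene's 32.2. Csn1s1, Csn1s2a, Csn3 and WT Csn2 intensities lie below the median probe set, and the table gives no background level against which to call them present.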
